A study of Homo sapiens with 12 samples.

Results

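The 6 genes described here, PAX2, PAX8, HNF4A, LHX1, EMX2 and WT1, encode transcription factors that specify and maintain the kidney lineage. They were chosen by name, with earlier results of these data known. All 6 were found among the 58051 genes counted in 12 RNA-seq libraries from 3 established human renal carcinoma lines. Cells of 786-O and A-498 received either a miR-29 mimic, a synthetic double of the miRNA, or a miRNA mimic control, with 1 library per group for 786-O and 2 for A-498. Cells of ACHN received either a miR-29 inhibitor, which blocks the endogenous miRNA, or a miRNA inhibitor control, with 3 libraries per group. Each agent was transfected at 10 nM with the same lipid reagent, so that the controls carry a transfected oligonucleotide too, and RNA was taken 48 h later. All 3 lines are labelled clear cell renal cell carcinoma, and the replicates are described as biological replicates of 1 line, so p-values speak of repeat cultures of that line and not of tumours.

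PAX2 and PAX8 are paired-domain factors that commit intermediate mesoderm to kidney and persist in renal tumours, where PAX8 serves pathologists as a lineage marker. LHX1 (LIM homeobox) and EMX2 (a homeobox factor of the ureteric bud) act at the same early stages, and WT1 drives the mesenchymal-to-epithelial transition of nephron progenitors and is later restricted to podocytes. HNF4A, a nuclear receptor, is the maturation factor of the proximal tubule. MicroRNAs of the miR-29 family pair through their seed (bases 2 to 8) with the 3′ UTR of mRNAs and lower them, with collagens and other matrix genes as textbook targets.

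The mature miR-29 sequences (RefSeq, GRCh38.p14) are shown with the seed in capitals, since all 3 share it and any site in the 6 genes is read against it.
hsa-miR-29a-3p: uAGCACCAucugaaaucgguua
hsa-miR-29b-3p: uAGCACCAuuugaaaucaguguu
hsa-miR-29c-3p: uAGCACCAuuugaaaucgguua
The complement of that seed is TGGTGCT. Exact matches to it, and to the complement of bases 2 to 7 followed by A, were searched on the transcribed strand of every annotated 3′ UTR of the 6 genes (GENCODE v44). HNF4A alone had a match, a single TGGTGCT 368 nt after the stop codon, in 3 of its 12 coding transcripts with a 3′ UTR. The site lies in the 3′ UTR on the plus strand of chr20:44430022-44430051 (GRCh38), with the match in capitals.
HNF4A site: cttccctagccTGGTGCTtctcctctccta
The longest annotated 3′ UTRs searched were 2399 nt for PAX2, 2613 nt for PAX8, 3180 nt for HNF4A, 1481 nt for LHX1, 1377 nt for EMX2 and 1283 nt for WT1. Among all 19225 protein-coding genes with a 3′ UTR, 16.4% held TGGTGCT in at least 1 isoform, so that 1 of 6 genes is close to the background. A match is a description of letters and not of a functional site.

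The libraries held 39919554 to 70027392 reads in genes, and 37.2% to 48.0% of the reads were assigned to no single gene, the highest shares (45.7% and 48.0%) being the 786-O pair. A panel of 8 known miR-29 targets (SPARC, COL4A1, LAMC1, COL4A2, CDK6, MCL1, DNMT3A and TET3) followed the labels: all 8 fell with the mimic in A-498 and all 8 rose with the inhibitor in ACHN, and 6 of 8 lay more than 2-fold lower with the mimic in 786-O. KRT8 and KRT18, the keratins of simple epithelia, stood at 141 to 1900 CPM (counts scaled to the total of reads in genes of a library) in all 12 libraries, and CDH16, kidney-specific cadherin, at 1.49 to 6.85 CPM. CA9, the hypoxia-induced carbonic anhydrase used as a marker of clear cell carcinoma, reached 7.17 to 11.7 CPM in A-498 but at most 0.315 CPM in 786-O and 0.167 CPM in ACHN. Summed levels of endothelial markers stayed at or below 0.802 CPM and of immune markers at or below 0.683 CPM. The fibroblast markers PDGFRB, DCN and LUM together ranged from 0.609 to 3.63 CPM in A-498 and ACHN and stood at 22.7 and 9.64 CPM in the control and mimic libraries of 786-O. In bulk RNA, fewer cells expressing a gene and less RNA per cell cannot be told apart.

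The control libraries address which of the kidney factors each line expresses. Each line had its own combination: 786-O expressed PAX8, LHX1, PAX2 and WT1, A-498 expressed PAX8, HNF4A, LHX1 and a trace of PAX2, and ACHN expressed PAX8, LHX1 and PAX2. EMX2 was at or under 3 counts in every library. The plot of CPM by library shows these combinations, which the treatments left in place.

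**Figure D1:**
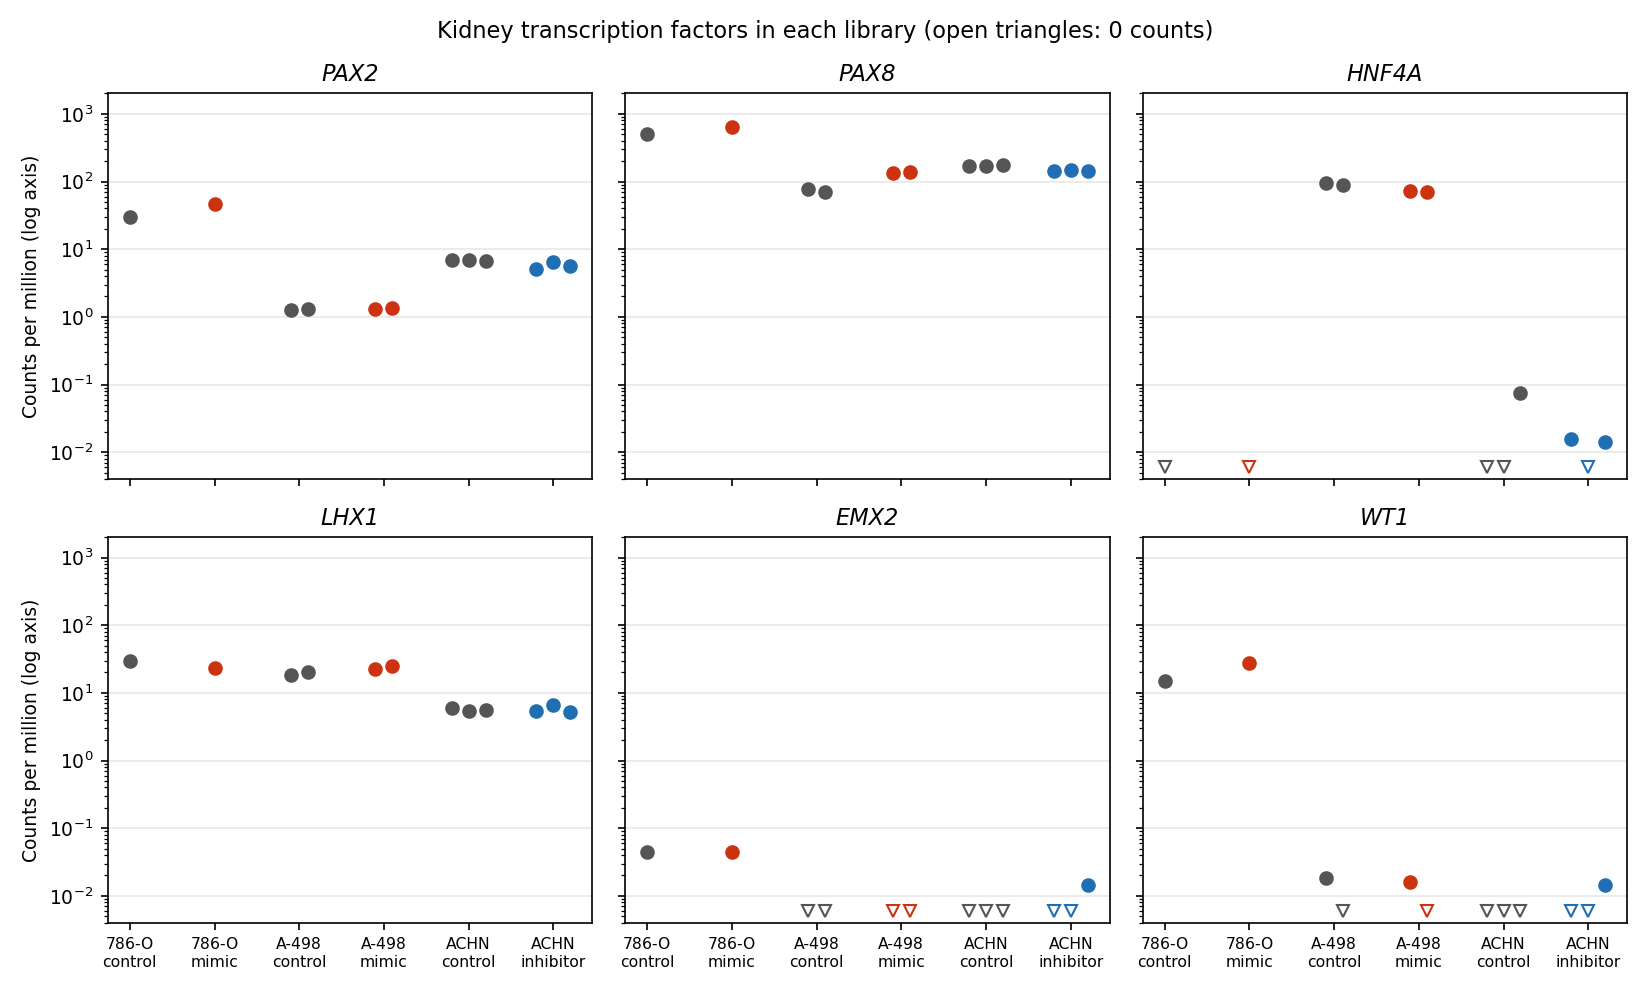
CPM (log axis) of the 6 transcription factors in each of the 12 libraries, 1 point a library, with controls in grey, miR-29 mimic in red and miR-29 inhibitor in blue. Open triangles mark libraries with 0 counts, drawn near the lower edge. HNF4A is seen at 69.7 to 95.7 CPM in A-498 and at 3 counts or fewer elsewhere, and WT1 at 15.0 and 28.0 CPM in 786-O and at 1 count or fewer elsewhere.

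PAX8 (ENSG00000125618, chromosome 2, 113215997 to 113278921, minus strand) was the most abundant factor of 786-O and ACHN. It stood at 509.9 CPM in the 786-O control, 76.4 and 69.0 CPM in the A-498 controls, and 169.2, 167.8 and 176.2 CPM in the ACHN controls. The 3 lines did not overlap. In a quasi-likelihood test of the counts (edgeR) over the 6 control libraries, with Benjamini-Hochberg adjustment over 21737 genes, PAX8 was 7.60-fold higher in 786-O than in A-498 (log2 2.93, SE 0.0578, adjusted p = 4.44e-28). It was 3.17-fold higher in 786-O than in ACHN (log2 1.67, SE 0.0519, edgeR adjusted p = 4.61e-23), and 2.40-fold lower in A-498 than in ACHN (log2 -1.26, SE 0.0474, adjusted p = 4.59e-21).

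PAX2 (ENSG00000075891, chromosome 10, 100735396 to 100829944, plus strand), the paralogue of PAX8, followed the same order at lower levels. Its values were 30.2 CPM in the 786-O control, 1.25 and 1.29 CPM in the A-498 controls, and 6.89, 6.95 and 6.76 CPM in the ACHN controls. It was 25.8-fold higher in 786-O than in A-498 (log2 4.69, SE 0.118, edgeR adjusted p = 1.96e-25), 4.68-fold higher in 786-O than in ACHN, and 5.50-fold lower in A-498 than in ACHN (log2 -2.46, SE 0.114, edgeR adjusted p = 1.15e-18).

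LHX1 (ENSG00000273706, chromosome 17, 36936785 to 36944612, plus strand) had another order, with A-498 above ACHN. It stood at 29.9 CPM in the 786-O control, 18.3 and 20.6 CPM in the A-498 controls, and 5.98, 5.45 and 5.61 CPM in the ACHN controls, with no overlap between lines. The distance between 786-O and A-498 was 1.66-fold (log2 0.73, SE 0.0838, edgeR adjusted p = 3.07e-09), and A-498 was 3.36-fold above ACHN (log2 1.75, SE 0.0740, edgeR adjusted p = 1.08e-19).

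HNF4A (ENSG00000101076, chromosome 20, 44355699 to 44432845, plus strand) and WT1 (ENSG00000184937, chromosome 11, 32387775 to 32435564, minus strand) were each present in a single line. HNF4A stood at 95.7 and 89.3 CPM in the A-498 controls. It had 0 counts in the 786-O control, which at a floor of 3 counts allows up to 0.0668 CPM, so that A-498 was at least 1380-fold higher. In the ACHN controls it had 0, 0 and 3 counts, a ratio of 4020 with a counting interval (exact binomial, 95%) of 1370 to 19500. WT1 stood at 15.0 CPM (674 counts) in the 786-O control, against 1 and 0 counts in the A-498 controls, a ratio of 1740 (counting interval 311 to 68700). All 3 ACHN controls had 0 counts of WT1, so that 786-O was at least 652-fold higher at a floor of 3 counts over the group. EMX2 (ENSG00000170370, chromosome 10, 117542445 to 117549546, plus strand) had 2 counts in each 786-O library, 1 count in 1 ACHN inhibitor library and 0 in the other 9, and was not tested.

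PAX8, PAX2 and LHX1, which every line expressed, passed in each of the 3 pairs of lines, where 74.7% (786-O and A-498), 73.6% (786-O and ACHN) and 75.3% (A-498 and ACHN) of all genes tested did, so that most genes differed between the lines. HNF4A and WT1 passed the filter on low counts through the single line in which they were high and were bound to differ there, and their ratios are given as a description. With 1 control library the spread of 786-O was taken from the other lines. The ACHN controls carried the inhibitor control, and those of 786-O and A-498 the mimic control. In comparisons with ACHN, line and control agent therefore cannot be told apart. Between any of the 3 lines, a difference in how the libraries were prepared or sequenced cannot be told apart from line either. The share of reads assigned to no single gene was 45.7% in the 786-O control and 37.2% to 40.6% in the other controls.

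Levels of different genes were compared per kilobase of merged annotated exons. In the 786-O control, PAX8 led with 69.2 CPM per kb, followed by LHX1 with 6.09, PAX2 with 4.59 and WT1 with 1.85 CPM per kb. In the A-498 controls, PAX8 (10.4 and 9.37 CPM per kb) and HNF4A (9.42 and 8.78 CPM per kb) overlapped, and their order turned when the longest annotated transcript replaced the merged exons (means of 17.5 for PAX8 and 19.5 for HNF4A). LHX1 followed with 3.73 and 4.19 CPM per kb, and PAX2 came last with 0.189 and 0.196 CPM per kb. In the ACHN controls PAX8 (22.8 to 23.9 CPM per kb) lay far above LHX1 (1.11 to 1.22) and PAX2 (1.03 to 1.06), which lay close to each other.

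The mimic in A-498 addresses how added miR-29 activity moves these factors. PAX8 rose and HNF4A fell, so that the 2 factors whose levels per kilobase overlapped in the controls moved apart. LHX1 rose slightly, and PAX2 did not pass the test. PAX8 went from 76.4 and 69.0 CPM in the controls to 132.2 and 137.5 CPM with the mimic. Every mimic library lay above every control library. The rise was 1.76-fold after normalisation (log2 0.82, SE 0.0502, edgeR adjusted p = 6.75e-09). HNF4A went from 95.7 and 89.3 CPM to 71.8 and 69.7 CPM, again without overlap, and was 1.38-fold lower (log2 -0.46, SE 0.0473, edgeR adjusted p = 1.38e-06). Per kilobase of merged exons, PAX8 stood at 17.9 and 18.7 CPM per kb with the mimic and HNF4A at 7.07 and 6.85 CPM per kb.

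LHX1 stood at 18.3 and 20.6 CPM in the A-498 controls and at 22.4 and 25.1 CPM with the mimic, a narrow gap between groups that did not overlap. The rise of 1.16-fold (log2 0.21, SE 0.0742) had an edgeR adjusted p of 0.0294. It did not pass with DESeq2 (adjusted p = 0.06), in 1 fit of all 12 libraries (adjusted p = 0.0625), without control replicate 1 (log2 0.12, adjusted p = 0.165) or without mimic replicate 2 (log2 0.13, adjusted p = 0.315). PAX2 stood at 1.25 and 1.29 CPM in the controls and at 1.29 and 1.36 CPM with the mimic, and the groups overlapped. Its log2 change of -0.02 (95% interval -0.40 to 0.36, edgeR adjusted p = 0.944) leaves room for changes of either sign. WT1 (1 and 0 counts in the controls, 1 and 0 with the mimic) and EMX2 (0 counts) were removed by the filter on low counts. Thus 4 of the 6 factors were tested, of which 2 rose (25.5% of all genes tested rose) and 1 fell (27.0% of all genes tested fell).

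In 786-O, the single mimic library was set beside the single control library, so that the difference has no replicate check and no test. Of the 4 factors with at least 10 counts in the pair, none lay past 2-fold, where 6.73% of genes were more than 2-fold higher and 8.96% more than 2-fold lower with the mimic. WT1 moved most, from 15.0 to 28.0 CPM (674 and 1244 counts), a ratio of 1.83 (log2 0.88, counting interval 0.74 to 1.01). PAX2 went from 30.2 to 46.6 CPM (log2 0.60, counting interval 0.50 to 0.70) and PAX8 from 509.9 to 642.6 CPM (log2 0.31, counting interval 0.28 to 0.33). LHX1 was the factor with a lower value with the mimic, at 29.9 and 23.0 CPM (log2 -0.40, counting interval -0.52 to -0.29). These intervals cover counting error only. HNF4A had 0 counts in both libraries and EMX2 had 2 counts in each.

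Whether the mimic acted alike in the lines was tested by an interaction term in edgeR (786-O minus A-498), in which the spread of the single 786-O libraries was taken from A-498. It differed for the 3 factors that both lines expressed. HNF4A and WT1, each present in only a single line, were tested too and did not pass. Of all genes tested, 29.6% differed. PAX8 rose less in 786-O, with a difference of -0.46 on the log2 scale (SE 0.0777, edgeR adjusted p = 0.000116). LHX1 differed by -0.57 (SE 0.126, edgeR adjusted p = 0.00161), with a lower value in 786-O and a higher value in A-498. PAX2 differed by 0.66 (SE 0.184, edgeR adjusted p = 0.00917), but not with DESeq2 (adjusted p = 0.0773), without A-498 control replicate 3 (adjusted p = 0.0568) or without A-498 mimic replicate 1 (adjusted p = 0.0999).

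The inhibitor in ACHN addresses the opposite manipulation in a line with PAX8, LHX1 and PAX2. PAX8 fell, and the other two did not pass the test. PAX8 stood at 169.2, 167.8 and 176.2 CPM in the controls and at 142.2, 149.5 and 143.1 CPM with the inhibitor. All 3 inhibitor libraries lay below all 3 controls. The fall was 1.17-fold (log2 -0.23, SE 0.0434, edgeR adjusted p = 0.000498), with the sign opposite to that of the mimic in A-498. PAX2 stood at 6.89, 6.95 and 6.76 CPM in the controls and at 5.15, 6.57 and 5.68 CPM with the inhibitor. The groups did not overlap, but the log2 change of -0.24 (SE 0.0952) had an edgeR adjusted p of 0.0664. Inhibitor replicate 2, the highest of its group for PAX2, differed most from the other inhibitor libraries over all genes. Its chi-square per degree of freedom was 10.7 and 12.2, against 3.87 to 6.72 for the other pairs of libraries in the 2 lines. Without inhibitor replicate 2 the log2 change of PAX2 was -0.33 (edgeR adjusted p = 0.0068). In 12 of 13 alternatives PAX2 was not called, and its log2 change ranged from -0.33 to -0.17 when single libraries were left out.

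LHX1 stood at 5.98, 5.45 and 5.61 CPM in the ACHN controls and at 5.34, 6.53 and 5.17 CPM with the inhibitor, and the groups overlapped. The log2 change was 0.003 (95% interval -0.21 to 0.21, edgeR adjusted p = 0.986). HNF4A (3 counts or fewer), WT1 and EMX2 (1 count or fewer) were not tested. Of the 3 factors tested, 0 rose (17.3% of all genes tested rose) and 1 fell (14.4% of all genes tested fell). At an unadjusted p of 0.05, PAX8 and PAX2 passed in edgeR, and with DESeq2 PAX8 was again the factor called.

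**Figure D2:**
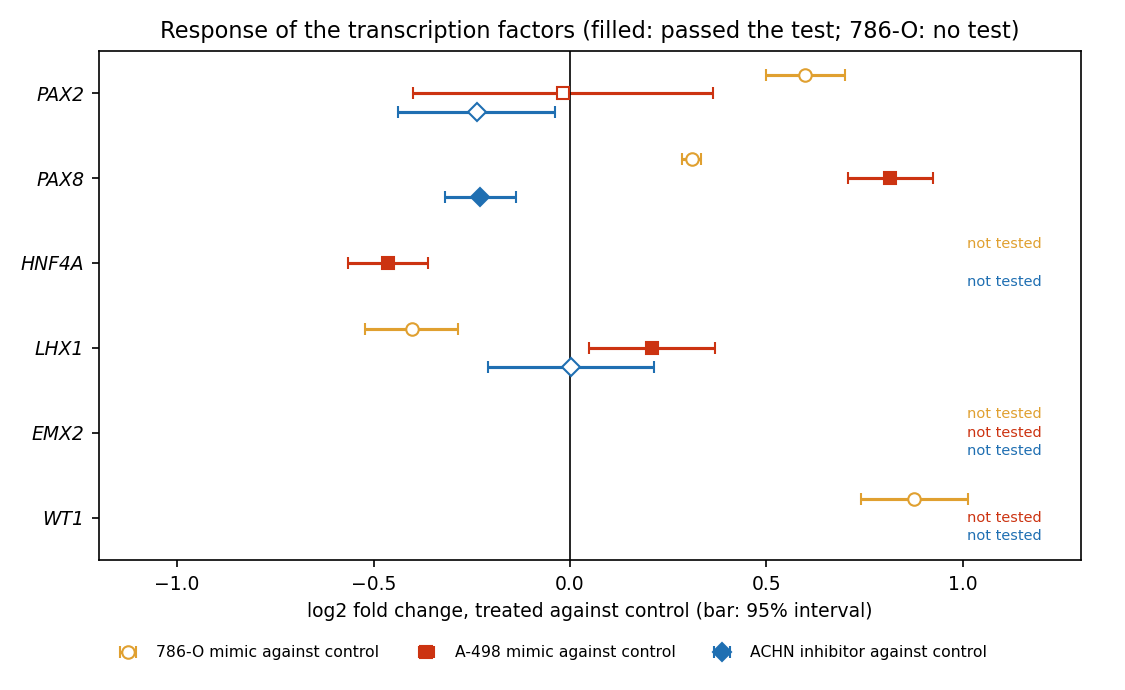
Log2 fold change of each transcription factor, treated against control, in 786-O (circles), A-498 (squares) and ACHN (diamonds), with 95% intervals from edgeR or, for the single 786-O libraries, from counting error. Filled symbols passed the test. PAX8 lies at 0.82 in A-498, 0.31 in 786-O and -0.23 in ACHN, and HNF4A at -0.46 in A-498.

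PAX8 is the factor that moved in opposite directions with the mimic and the inhibitor, and the A-498 and ACHN comparisons share no library. Of 16708 genes tested in both, 7.37% rose with the mimic and fell with the inhibitor, as PAX8 did, and 10.5% did the reverse. Among the 68 genes of the kidney, epithelial, stromal and cofactor lists tested in both lines, 9 did as PAX8 did (PAX8 included), among them SALL1 and SOX11 (early kidney regulators), KRT8, KRT18, CDH16 and EPCAM (epithelial markers) and AGT (angiotensinogen). The reverse held for 10 genes, among them SOX9, PPARA, CUX1, HAVCR1 (the injury marker KIM-1), PDGFRB and the coactivators NCOA3 and WWTR1. Genes of these 2 groups outside the rule for named genes were named after their values were seen.

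**Figure D3:**
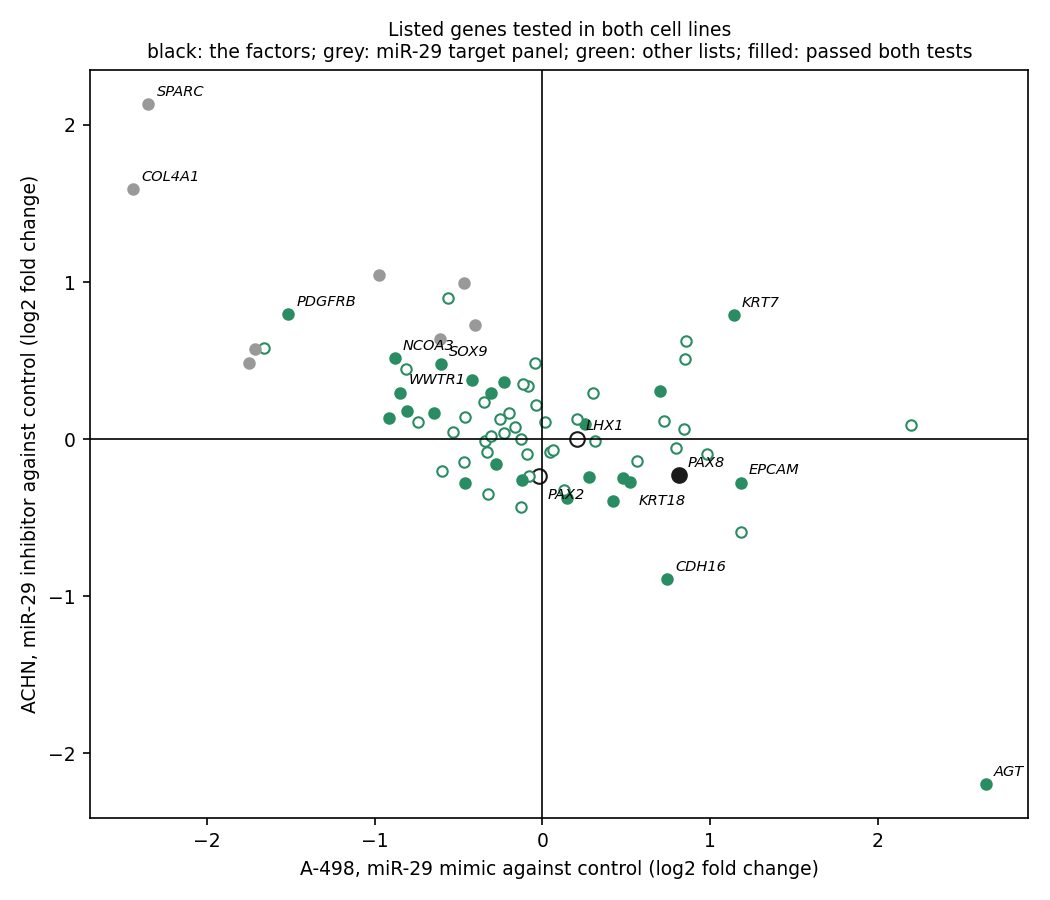
Log2 fold change with the miR-29 mimic in A-498 (horizontal) against that with the inhibitor in ACHN (vertical), 1 point a listed gene tested in both lines. Black points are the transcription factors, grey points the miR-29 target panel and green points the other lists, filled where both tests were passed. PAX8 (0.82, -0.23) lies in the lower right with CDH16 (0.74, -0.89) and AGT (2.64, -2.19), opposite to SPARC (-2.35, 2.13).

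The antisense and divergent transcripts of the 6 loci were counted as genes of their own from a stranded library. PAX8-AS1 overlaps PAX8 on the other strand and rose with PAX8 in A-498, from 8 and 10 counts in the controls to 41 and 48 counts with the mimic (log2 2.20, SE 0.343, edgeR adjusted p = 8.79e-05). In 786-O it had 29 and 38 counts (control, mimic), and in ACHN 16 to 19 counts in the controls and 22 to 31 with the inhibitor (log2 0.09, edgeR adjusted p = 0.842). LHX1-DT, transcribed divergently from LHX1, fell in A-498, from 7.85 and 8.23 CPM to 6.80 and 6.50 CPM (log2 -0.35, SE 0.0878, edgeR adjusted p = 0.00392). The slight rise of LHX1 there failed in 5 of 10 alternatives. In the 786-O control and mimic libraries LHX1-DT stood at 5.79 and 2.97 CPM (log2 -0.97), and LHX1 also had a lower value with the mimic (log2 -0.40). In ACHN the log2 change of LHX1-DT was 0.23 (edgeR adjusted p = 0.0843). WT1-AS was seen where WT1 was, with 56 and 59 counts in 786-O and at most 1 count in any other library, and its level did not follow the ratio of WT1 (log2 0.07, counting interval -0.48 to 0.62). HNF4A-AS1 had 1 to 4 counts in the A-498 libraries and 0 elsewhere, and EMX2OS had at most 4 counts in any library.

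Close relatives of the factors could share reads or functions with them. HNF4G, the paralogue of HNF4A, was expressed in all 3 lines, at 19.0 and 21.0 CPM in the A-498 controls, 14.1 to 14.2 CPM in the ACHN controls and 5.37 CPM in the 786-O control. It fell with HNF4A in A-498 (log2 -0.33, SE 0.0686, edgeR adjusted p = 0.00101) and stood at 3.58 CPM in the 786-O mimic library. In ACHN its log2 change was -0.08 (edgeR adjusted p = 0.398). PAX5, EMX1 and LHX5 stayed at or below 0.504 CPM in every library.

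Genes that HNF4A is known to activate were followed from a fixed list of 20. MTTP, TF, VIL1 and CDHR2 had 11 to 66 counts in each A-498 control, 0 to 10 in each ACHN control and 0 to 3 in the 786-O control. They passed the filter on low counts through A-498 alone, so that their difference between lines is a description. AGT, with 79 and 91 counts in the A-498 controls and 22, 17 and 11 in the ACHN controls, was higher in A-498 than in ACHN (log2 1.91, SE 0.243, edgeR adjusted p = 2.71e-08) but not than in 786-O. SERPINA1 was lower in A-498 than in either other line. The lipoprotein genes APOB, APOC3, APOA1, APOA2 and APOA4 were among those not tested in the treatment comparisons. With the mimic in A-498, while HNF4A fell, 2 of the 8 tested rose (25.5% of all genes tested rose), 1 fell (27.0% of all genes tested fell) and 5 did not pass, with a median log2 change of 0.23 against 0.005 over all genes. AGT, the precursor of angiotensin, rose from 1.43 and 1.51 CPM to 9.31 and 10.1 CPM (log2 2.64, SE 0.115, edgeR adjusted p = 1.99e-10), and MTTP, the lipid transfer protein of lipoprotein assembly, rose from 0.993 and 0.994 CPM to 1.94 and 1.75 CPM (log2 0.82, edgeR adjusted p = 0.00125). The gene that fell was VIL1 (villin), by a log2 change of -0.79 (edgeR adjusted p = 0.0299) that was lost without control replicate 1 or mimic replicate 2. In ACHN, where HNF4A had 3 counts or fewer, 3 of the list were tested, of which 1 rose and 1 fell (17.3% and 14.4% of all genes). SERPINA1 rose (log2 0.48, edgeR adjusted p = 3.62e-06) and AGT fell from 22, 17 and 11 counts to 6, 4 and 5 counts (log2 -2.19, edgeR adjusted p = 0.000332), the latter named after its values were seen since its level lay under the rule for named genes.

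The early kidney regulators (25 listed) surround the 6 factors in development. In A-498, 18 were tested, of which 8 rose and 5 fell with the mimic, with a median log2 change of 0.27 (25.5% and 27.0% of all genes). ETV5 (log2 0.84, SE 0.0503, edgeR adjusted p = 4.79e-09) and ETV4 (log2 0.72), the ETS factors downstream of RET in the ureteric bud, rose, while SOX9 (log2 -0.61) and HOXA11 (log2 -0.60) fell. SIX2, a marker of nephron progenitors that lay under the level set for naming, fell from 76 and 78 counts to 29 and 23 counts (log2 -1.66, edgeR adjusted p = 2.44e-05). EYA1, SALL1, HOXB7, GFRA1 and SOX11 were also among those that rose, and without mimic replicate 2 the count that rose was 5. In ACHN, 15 were tested, of which 2 rose, SOX9 (log2 0.48, edgeR adjusted p = 0.0038) and the GDNF receptor GFRA1 (log2 0.10), and 4 fell, among them SOX11 (log2 -0.39), SALL1 (log2 -0.37) and OSR1 (17.3% of all genes tested rose and 14.4% fell). Leaving out single ACHN libraries gave 1 to 2 that rose and 1 to 5 that fell, with 1 that fell without control replicate 2 and 2 without control replicate 1, control replicate 3, inhibitor replicate 1 or inhibitor replicate 3. In 786-O, ETV5 was the gene past 2-fold upwards (9.53 and 30.7 CPM) and WNT4 the gene past 2-fold downwards.

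**Figure D4:**
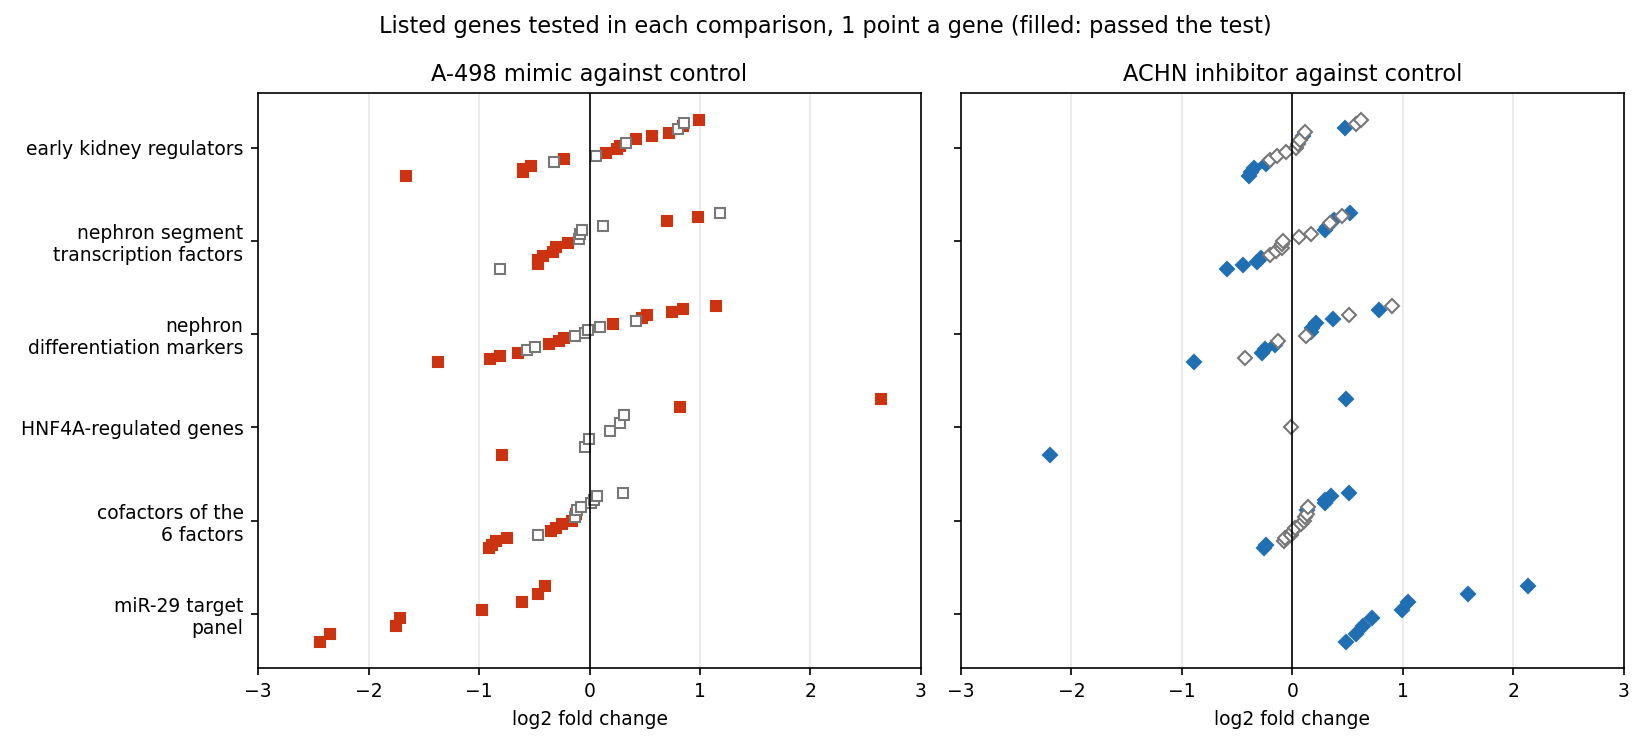
Log2 fold change of the tested genes of 5 kidney lists and of the miR-29 target panel, with the mimic in A-498 (left, squares) and with the inhibitor in ACHN (right, diamonds), 1 point a gene, filled where the test was passed. All 8 genes of the panel lie below 0 on the left and above 0 on the right, and the cofactors that passed lie below 0 in A-498.

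Transcription factors of single nephron segments (25 listed) moved in either direction. With the mimic in A-498, 2 of 14 tested rose, HEY1 (log2 0.98, edgeR adjusted p = 0.000975) and the distal tubule factor ESRRG (log2 0.70), and 6 fell, led by POU3F3 (log2 -0.47) and ELF3 (log2 -0.46), where 25.5% of all genes rose and 27.0% fell. In ACHN 4 of 17 rose and 4 fell, where 17.3% of all genes rose and 14.4% fell. SIM1 (log2 0.52, edgeR adjusted p = 0.000377) and PPARA (log2 0.37) led those that rose, and TFCP2L1 of the collecting duct (log2 -0.59, edgeR adjusted p = 0.000554) and IRX2 (log2 -0.45) those that fell, whose number was 2 without control replicate 2 or control replicate 3.

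Markers of differentiated nephron cells (26 listed) divided between those that rose and those that fell with the mimic in A-498, at 6 and 7 of 20 tested (25.5% and 27.0% of all genes). KRT7 (log2 1.14, edgeR adjusted p = 6.67e-06) and the proximal tubule receptor CUBN (log2 0.85) rose, and the brush border peptidase MME (log2 -1.37, edgeR adjusted p = 2.27e-11) and the cadherin CDH6 (log2 -0.90) fell. Of the epithelial markers KRT8, KRT18, CDH16, CA9 and EPCAM, 5 of 5 rose with the mimic in A-498 (25.5% of all genes rose). The number was 4 to 5 when single A-498 libraries were left out. EPCAM had few counts there, 17 and 11 in the controls and 24 and 44 with the mimic. With the inhibitor in ACHN, 4 of 4 tested fell (14.4% of all genes fell). CDH16, for instance, went from 3.47 and 4.16 CPM to 6.64 and 6.85 CPM in A-498 (log2 0.74, SE 0.110, edgeR adjusted p = 5.16e-05) and from 2.84 to 3.60 CPM down to 1.49 to 1.88 CPM in ACHN (log2 -0.89, SE 0.135, edgeR adjusted p = 5.12e-05). Their summed level, which KRT8 and KRT18 dominate, moved with PAX8 in A-498 and ACHN. In A-498 it went from 1753 to 1900 CPM in the controls to 2670 to 2769 CPM with the mimic. In ACHN it went from 2920 to 3120 CPM to 2379 to 2600 CPM with the inhibitor. The fibroblast marker PDGFRB moved the other way, down in A-498 (log2 -1.51, edgeR adjusted p = 2.21e-05) and up in ACHN (log2 0.79, edgeR adjusted p = 0.000458). LUM and DCN were not tested in A-498. In the single libraries of 786-O, where PAX8 had a log2 ratio of 0.31, the epithelial sum was 636.9 CPM (control) and 654.3 CPM (mimic). KRT8 (log2 -0.06) and CDH16 (log2 -0.10) had lower values there, and KRT18 (log2 0.24), EPCAM (log2 0.34) and CA9 (2 and 14 counts) higher values. Of the other keratins listed, KRT7 rose and KRT19 fell in both A-498 and ACHN. The part of either marker group in the change of PAX8 was not tested. In ACHN as a whole, 5 of the 14 differentiation markers tested rose, led by KRT7 (log2 0.79) and GGT1 (log2 0.36), and 4 fell, CDH16, KRT8, KRT18 and KRT19 (17.3% and 14.4% of all genes), with 3 that rose without control replicate 2.

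Proteins that work with the 6 factors (19 cofactors listed) fell with the mimic in A-498 in 9 of 17 tested (27.0% of all genes fell), and 0 rose (25.5% of all genes rose), with a median log2 change of -0.16 against 0.005 over all genes. Scaling by library size alone gave 2 that rose. BASP1, the corepressor of WT1, had a log2 change of -0.91 (SE 0.0710, edgeR adjusted p = 8.23e-08), from 18.1 and 19.1 CPM to 10.6 and 10.2 CPM, in a line without WT1. NCOA3, a coactivator of nuclear receptors, had a log2 change of -0.88 (SE 0.0440, edgeR adjusted p = 8.2e-10), from 109.0 and 110.2 CPM to 64.1 and 61.3 CPM, and stood at 107.6 and 43.1 CPM in the control and mimic libraries of 786-O. WWTR1 (TAZ, a PAX8 coactivator), SSBP2, SSBP3, PAXIP1, TLE4, NCOA2 and NR2F2 were the others that fell. Of these, 4 had higher values with the mimic in 786-O. WWTR1 stood at 177.1 and 320.9 CPM in the control and mimic libraries of 786-O (log2 0.83), and its response differed from that in A-498 by 1.73 on the log2 scale (SE 0.0774, edgeR adjusted p = 2.39e-12). NR2F2 (log2 0.46), PAXIP1 (log2 0.34) and NCOA2 (log2 0.09) were the other three with higher values in 786-O, and for each the interaction with A-498 passed. Over the list, the interaction passed for 8 of 17 cofactors, with a difference (786-O minus A-498) above 0 for 7 and below 0 for 1, NCOA3, where 29.6% of all genes tested did. In ACHN the inhibitor raised 5 of 17 (17.3% of all genes rose), led by NCOA3 (log2 0.52, SE 0.0439, edgeR adjusted p = 5.54e-08) and NCOA1 (log2 0.35), with BASP1, WWTR1 and PPARGC1A, and lowered 2, PAXIP1 (log2 -0.26) and SSBP4 (log2 -0.23), where 14.4% of all genes fell. The number that rose was 3 without control replicate 2, and the number that fell was 1 without inhibitor replicate 1 or inhibitor replicate 3.

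Genes whose log2 CPM varied most like each factor over the 12 libraries were listed as a description. The highest Pearson r among the 13621 or 13622 genes compared were with NCOR1 and ZFHX4 for PAX2 (both 0.998 when rounded), NHSL1 and GGA3 for PAX8 (0.998 and 0.997), CFI and AKR1C2 for HNF4A (0.996 and 0.995), SCNN1A and TNRC18 for LHX1 (both 0.994) and PTDSS1 and DROSHA for WT1 (0.994 and 0.993). The 12 points come from 3 lines, so that the differences between lines set these values.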

How the data were processed

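Per the study's methods, the authors aligned stranded, rRNA-depleted, paired-end reads to GRCh38 with HISAT2 and deposited raw counts per Ensembl v87 gene from HTSeq-count (intersection-strict mode), not normalised. The authors' DESeq2 tables of fold changes and p-values were not used, and further A-498 samples that the study set aside for doubtful labels were not analysed here. The 5 summary lines of unassigned reads per library stayed out of totals and tests.

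Groups came from the labels. Counts were tested per line with the edgeR 4.0.16 quasi-likelihood test in R 4.3.3 (TMM, filterByExpr, Benjamini-Hochberg adjusted p under 0.05 over all genes tested). The controls of the 3 lines were fitted together, and the interaction used the 6 mimic and mimic control libraries. The 786-O ratios used TMM, a prior count of 2 and a minimum of 10 counts, with exact binomial 95% intervals. Intervals and floors (3 counts) cover counting error only. Depth was 39919554 to 70027392 reads in genes. Fitted variation between replicates (biological coefficient) amounted to 3.83% for A-498 and 5.25% for ACHN. Replicate pairs differed by more than counting noise (chi-square per degree of freedom 3.87 to 12.2). The edgeR fits were tested on simulated counts with changes of 2-fold or more and a single spread for all genes. Smaller changes, such as those of PAX8 and HNF4A with treatment, were not covered.

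Levels are CPM of raw totals, whereas fold changes are TMM-scaled. Exon lengths, spans and 3′ UTRs came from GENCODE v44 (GRCh38). Named genes were the 6 factors, the target panel, and from each list and tested treatment up to 2 called genes per direction with the largest change among those with a mean log2 CPM of at least 0. Some listed genes are counted but not reported by name here. The factors and all lists were chosen with earlier results of these data known. Alternatives were RLE or library-size scaling, no filter, DESeq2 1.42.0, an adjusted p of 0.01, each library left out, a replicate block in ACHN, other settings for the 786-O ratios, lengths and 3′ UTR window, and, chosen after seeing the data, 1 fit of all 12 libraries.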

Additional observations from a re-analysis of the deposited data

Results flagged for a closer look

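The response to the mimic differed between 786-O and A-498, by an interaction test in edgeR, for the 3 kidney factors that both lines expressed. The difference (786-O minus A-498, log2) was 0.66 for PAX2 (edgeR adjusted p = 0.00917), where PAX2 was 1.51 times its control level in 786-O and did not pass the test in A-498. It was -0.46 for PAX8 (edgeR adjusted p = 0.000116), with values above the control in either line, and -0.57 for LHX1 (edgeR adjusted p = 0.00161), with a lower value in 786-O. With 1 library per group in 786-O, the line and the single culture cannot be told apart. Across the alternatives the difference ranged from -0.57 to -0.43 for PAX8 and from -0.74 to -0.48 for LHX1, and passed in each, while that of PAX2 ranged from 0.54 to 0.70 and did not pass in 3 of 10.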

How the results depend on the processing

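The changes of PAX8 in A-498 and ACHN and of HNF4A in A-498 kept direction and call under every alternative run. So did the differences of PAX8, PAX2 and LHX1 between control lines. The differences of HNF4A and WT1 that passed were bound to do so, and their stable calls are no support. The differences of HNF4A between 786-O and ACHN and of WT1 between A-498 and ACHN did not pass. Their values under the alternatives were not recorded, since every control library of these pairs held 3 counts or fewer. The log2 change of PAX8 ranged from 0.73 to 0.89 with the mimic in A-498 and from -0.25 to -0.21 with the inhibitor in ACHN, and that of HNF4A from -0.52 to -0.39. The call of LHX1 in A-498 failed in 5 of 10 alternatives, an adjusted p of 0.01 among them. PAX2 in A-498, never called, was 0.05846 with library size only and -0.05699 to 0.01347 when single libraries were left out. LHX1 in ACHN, never called, was -0.005396 with RLE factors, -0.007903 with library size only, -0.004665 with DESeq2 and -0.1062 to 0.06358 when single libraries were left out. The number of factors called in ACHN was 1 to 2 when single libraries were left out, the second being PAX2. Over all genes, the interaction called 6695 genes, and 4235 with DESeq2. In 786-O 3197 genes lay past 2-fold, and 5712 with no minimum count, where genes of few counts enter. The cause of the other changes was not tested. The number of factors with a miR-29 seed match was 1 also within the first 2000 nt of the longest 3′ UTR.

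In ACHN the replicate numbers were shared by both groups, but same-numbered libraries did not deviate together (r of deviations 0.0418, -0.0504 and -0.00467 over 17904 genes), so the numbers were not taken as pairs. With a replicate block, 5763 genes were called, against 5680 without, and 1 factor, PAX8, was called (PAX2 -0.24, edgeR adjusted p = 0.0536). The A-498 groups shared only replicate number 1, and no paired analysis was possible because a block needs at least 2 shared numbers. Precision is limited by counts for PAX2 in A-498 (147 counts in the controls together), and by single libraries in 786-O.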
